A study of Homo sapiens with 28 samples.

Results

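The H3K27ac peak lists of S-phase and G2/M human embryonic stem cells were compared, 2 of the 28 libraries of a study of histone marks and chromatin contacts through the cell cycle. The S list held 10268 peaks and the G2/M list 19525, out of 92482 H3K27ac peaks listed over 4 fractions. G2/M peaks were matched to S peaks by an overlap of at least 1 bp. By that rule 12764 of the G2/M peaks (65.4%) had no counterpart in S and 6761 did. The question asked of the 12764 was how many were already listed in late G1 or early G1, the fractions that precede S, and how this varied with distance to H3K4me3, width and height.

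All libraries came from 1 embryonic stem cell line carrying the Fucci reporters, fluorescent proteins that accumulate and are degraded with the cell cycle and so allow living cells to be sorted by phase. The cells were cultured without serum or feeder cells in a defined medium with heregulin, activin A, LongR3 IGF-1 and FGF2. In the labels early G1 is the DN fraction and late G1 the KO2 fraction, while S is AzL and G2/M is AzH, and the labels name no treatment. Each mark had 1 library per fraction, so no test between fractions was possible. Shares are given with exact Clopper-Pearson 95% intervals, which treat peaks as independent and reflect counting error alone. Read depth is unknown here, and a peak missing from a list may lie below that list's detection limit.

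H3K27ac is the acetylation of lysine 27 of histone H3, deposited by the acetyltransferases p300 and CBP at active promoters and enhancers. H3K4me3 marks the promoters of active and poised genes, so overlap with it separates promoter-like from distal acetylation. DNA replication in S phase dilutes parental histones with newly made ones, and modifications have to be placed again on the new histones. No gene names are given, because no annotation of the build of these coordinates was used here.

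The G2/M peaks that S lacked were short and low. Their median width was 175 bp (interquartile range 100 to 250 bp, longest 1400 bp), against 375 bp for the G2/M peaks that overlapped an S peak. Their median height, the authors' value in the deposited signal column, was 16.7 (15.3 to 19.2, highest 127.9), against 23.03 for the overlapping ones. They covered 2.47 Mb, while the 6761 overlapping peaks covered 3.13 Mb. The share absent from S fell from 87.3% of G2/M peaks under 200 bp through 71.8% at 200 to under 300 bp and 45.4% at 300 to under 500 bp to 12.0% at 500 bp or more. By quartile of height over the G2/M list it was 88.4%, 81.8%, 65.5% and 26.4% from the lowest to the highest quartile. By distance to H3K4me3 it varied by a few points: 66.4% of G2/M peaks overlapping an H3K4me3 peak of any fraction were absent from S, 67.4% of those within 2.5 kb of one and 64.5% of those farther away.

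Most of the absent peaks were also listed in a G1 fraction. Of the 12764, 8611 (67.5%, 66.6 to 68.3) overlapped an H3K27ac peak of late G1 or early G1. Late G1 listed 6639 of them (52.0%, 51.1 to 52.9) and early G1 6162 (48.3%, 47.4 to 49.1). Both G1 fractions listed 4190 (32.8%), late G1 alone 2449 (19.2%), early G1 alone 1972 (15.4%) and neither 4153 (32.5%). For all G2/M peaks the background was 77.4% in late or early G1, 65.8% in late G1 and 60.7% in early G1. The absent peaks therefore lay below the list as a whole on every count. The G2/M peaks that S did list stood at 96.3% in either G1 fraction (95.8 to 96.7), with 79.8% in both and 3.71% in neither. Late G1 stood above early G1 among the absent peaks with the full lists. With an equal number of 9662 peaks per list the order turned, to 34.2% in late G1 and 36.8% in early G1, and the share in either fell to 52.4%.

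**Figure D1:**
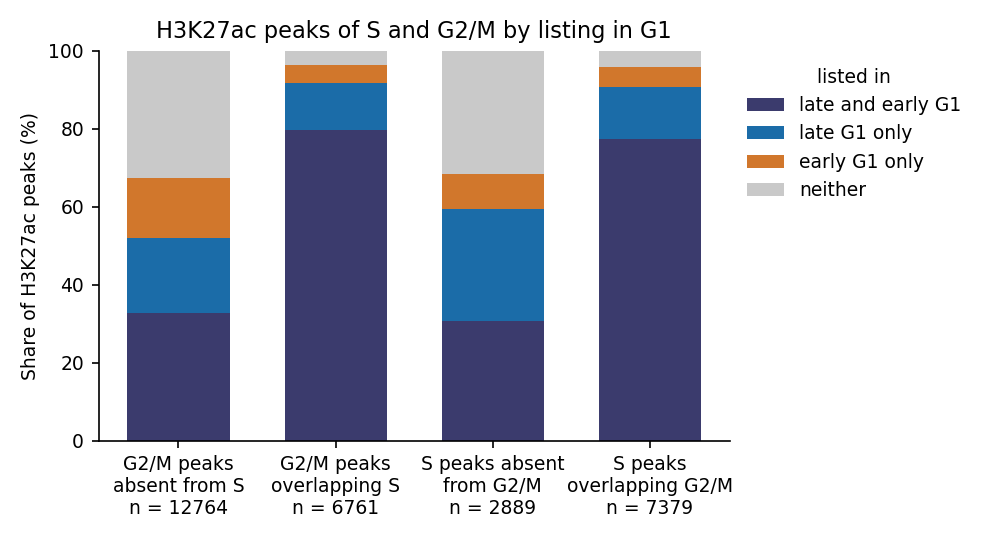
Stacked bars give the share (%) of H3K27ac peaks listed in late and early G1, in late G1 only, in early G1 only or in neither, for G2/M and S peaks split by whether the other fraction lists them. Peaks missing from the other list had no G1 counterpart in 32.5% (G2/M) and 31.7% (S) of cases, against 3.71% and 4.20% of the peaks that overlapped it.

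Height and width differed between absent and overlapping peaks, so both sets were also compared within combinations of width band and height quartile holding at least 20 peaks of each, pooled over distance classes. In all 12 such combinations the absent peaks were listed in G1 less often, with differences of -33.2 to -1.37 percentage points. Weighted to the mix of the absent peaks, the shares were 67.5% for absent and 90.7% for overlapping peaks. The gap of 23.3 points was thus smaller than the gap between 67.5% and 96.3% without matching, and absent peaks were the lower at every size compared.

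Absent peaks that overlapped H3K4me3 were more often listed in G1 than absent peaks elsewhere. Of the absent peaks, 3251 (25.5%) overlapped an H3K4me3 peak of any fraction, 1701 (13.3%) lay within 2.5 kb of one and 7812 (61.2%) lay farther away. Late or early G1 listed 81.6% of the first class (80.2 to 82.9), 64.6% of the second (62.3 to 66.9) and 62.2% of the third (61.1 to 63.3). The step came at the edge of the H3K4me3 peak itself: at 1 to 500 bp from it the share was already 62.4%, and beyond 200 kb it was 63.1%. At the 2.5 kb limit nothing changed, with 67.3% of the 168 peaks in the last 500 bp inside it and 66.7% of the 156 peaks in the first 500 bp outside it listed in G1. For G2/M peaks that S also listed the 3 classes stood at 97.2%, 97.7% and 95.7%.

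**Figure D2:**
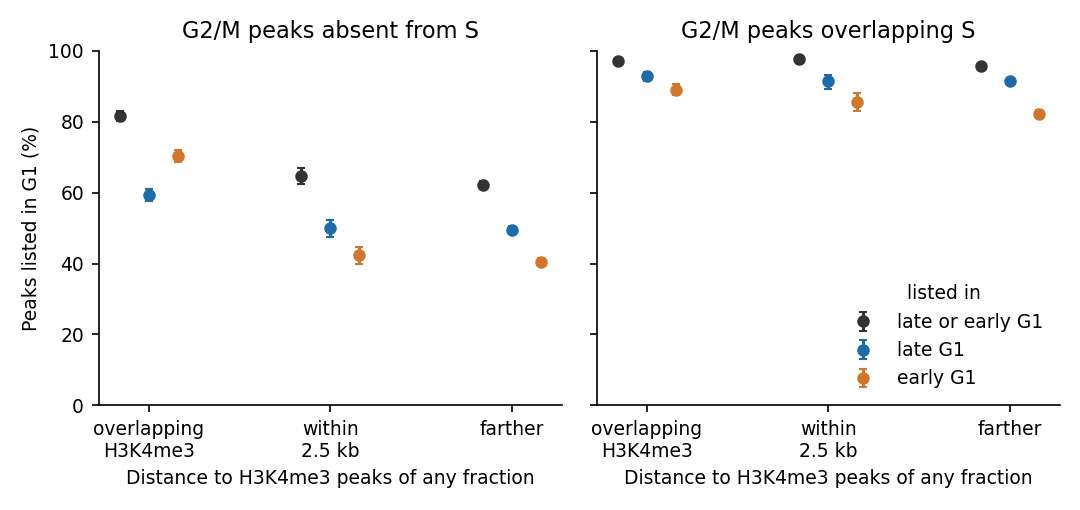
Points give the share (%) of G2/M H3K27ac peaks listed in late or early G1, in late G1 and in early G1, by distance to H3K4me3 peaks, with exact 95% intervals. Among peaks absent from S, early G1 stands above late G1 only where H3K4me3 overlaps (70.4% against 59.3%), while among peaks that overlap S late G1 is the higher in all 3 classes.

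The higher share at H3K4me3 was also seen among peaks of the same size. In all 12 combinations of width band and height quartile with at least 20 peaks of each kind, absent peaks overlapping H3K4me3 exceeded those farther away, by 2.80 to 24.02 points. At the same mix of sizes the shares were 81.8% and 64.3%, a difference of 17.5 points. Without matching it was 19.4 points, and it came to 8.85 among G2/M peaks of at least 250 bp, 11.7 in the stronger part of each list by height and 12.7 with matches within 500 bp. Peaks within 2.5 kb of H3K4me3 exceeded the farther ones in 7 of 11 combinations, with differences from -11.1 to 12.0 points and 1.46 points at the same mix. The G1 lists were dense inside H3K4me3 regions. Of the 28.0 Mb in 32799 merged H3K4me3 regions, early G1 H3K27ac peaks covered 14.3% and late G1 peaks 8.31%, against 1.19% and 1.27% of the 2.5 kb flanks. The part of this density in the higher share was not tested.

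The 2 G1 fractions changed places between H3K4me3 regions and the rest of the genome. Early G1 listed 70.4% of the absent peaks overlapping H3K4me3 and late G1 59.3%, so late G1 was lower by 11.1 points. Among the absent peaks farther than 2.5 kb late G1 listed 49.5% and early G1 40.4%, so late G1 was higher by 9.05 points. In finer steps early G1 led at overlap, and late G1 led in each of the 6 bins beyond 500 bp. At 1 to 500 bp early G1 listed 46.6% and late G1 44.2% of the same 695 peaks, a difference that was not tested. Beyond 200 kb from any H3K4me3 peak the shares were 54.9% in late G1 and 34.1% in early G1. The G1 lists themselves differ in this way: 41.9% of all early G1 peaks overlapped H3K4me3 and 48.1% lay farther than 2.5 kb, against 26.6% and 61.7% of late G1 peaks. With equal numbers of peaks per list, late G1 minus early G1 was -19.9 points at H3K4me3 and 4.57 points farther away. The part of the lists' make-up in the crossing was not tested.

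**Figure D3:**
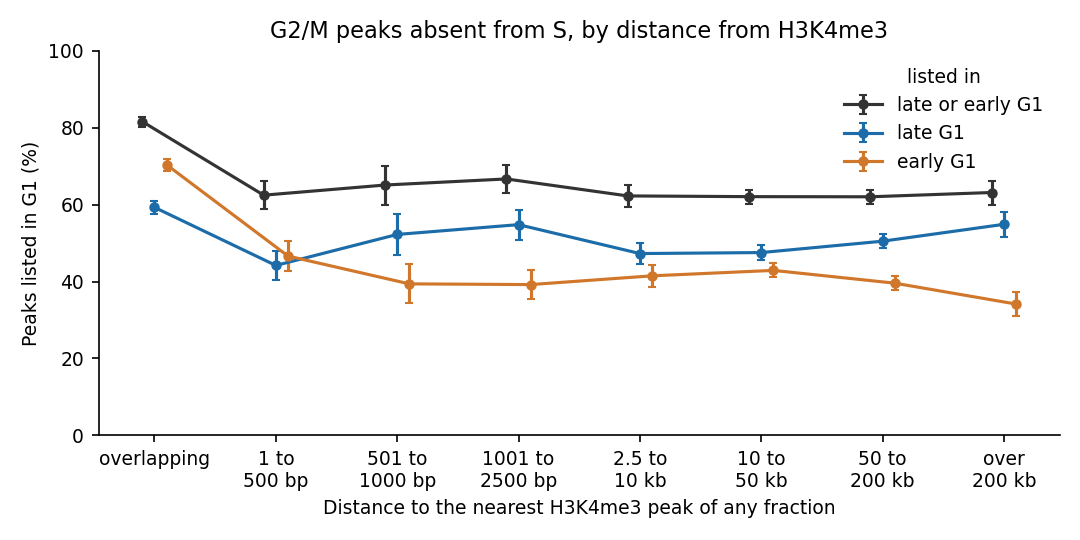
The share (%) of G2/M H3K27ac peaks absent from S that G1 lists, by distance from the nearest H3K4me3 peak of any fraction, with exact 95% intervals; lines join bins of 1 measure. Early G1 falls from 70.4% at overlap to 34.1% beyond 200 kb, and late G1 runs from 59.3% through 44.2% at 1 to 500 bp to 54.9%.

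Wider and taller absent peaks were more often already listed in G1. By width the share in late or early G1 was 57.2% of 7395 peaks under 200 bp, 76.2% of 3328 at 200 to under 300 bp, 89.0% of 1726 at 300 to under 500 bp and 98.1% of 315 at 500 bp or more. By height it rose from 53.9% of 4060 peaks in the lowest quartile through 66.7% of 3759 and 78.4% of 3008 to 88.4% of 1211 in the highest. The quartiles met at heights of 15.7, 18.0 and 22.4. The 726 peaks on chromosomes with no deposited height stood at 67.5%. A wide peak meets a 1 bp overlap more easily than a short one, so width bears on the match itself. Within peaks of 200 to under 300 bp the share still ran from 73.0% in the lowest height quartile through 74.2% and 77.2% to 78.9% in the highest. Across widths at 1 height the range was larger: in the third quartile it ran from 64.4% under 200 bp to 98 of 100 peaks at 500 bp or more. The size of both differences depended on the settings. The highest quartile exceeded the lowest by 34.5 points, but by 7.62 among G2/M peaks of at least 250 bp and by 18.3 when a peak within 500 bp counted as a match. The widest band exceeded the narrowest by 40.9 points, and by 21.8 with matches within 500 bp.

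Early G1 listing varied more with height than late G1 listing did. From the lowest to the highest quartile, early G1 listed 33.7%, 45.6%, 60.2% and 77.3% of the absent peaks and late G1 40.5%, 50.8%, 60.9% and 70.4%. Pooled over distance classes, late G1 was thus the higher in the lowest quartile and early G1 in the highest. The classes differed in this. At H3K4me3 early G1 was already the higher in the lowest quartile (57.8% against 50.9%). Farther than 2.5 kb late G1 was the higher there (38.0% against 27.4%). In the highest quartile that far away, early G1 stood at 72.2% and late G1 at 71.7%. By width the pooled shares stayed closer, from 37.5% (early) and 42.6% (late) under 200 bp to 90.2% and 92.1% at 500 bp or more. Under 200 bp the gaps of the classes were opposite, with 61.6% early and 51.7% late at H3K4me3. Farther than 2.5 kb these were 29.7% and 39.5%.

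Distance class, width and height combined. Among peaks under 200 bp, late or early G1 listed 75.1% of those overlapping H3K4me3, 52.7% of those within 2.5 kb and 51.4% of those farther. At 500 bp or more the 3 classes met, at 100% (80 of 80), 97.8% and 97.4%. In the lowest height quartile the shares were 72.9%, 48.0% and 49.2%, and in the highest 90.6%, 90.1% and 86.4%. The H3K4me3 classes therefore differed most among the smallest peaks.

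**Figure D4:**
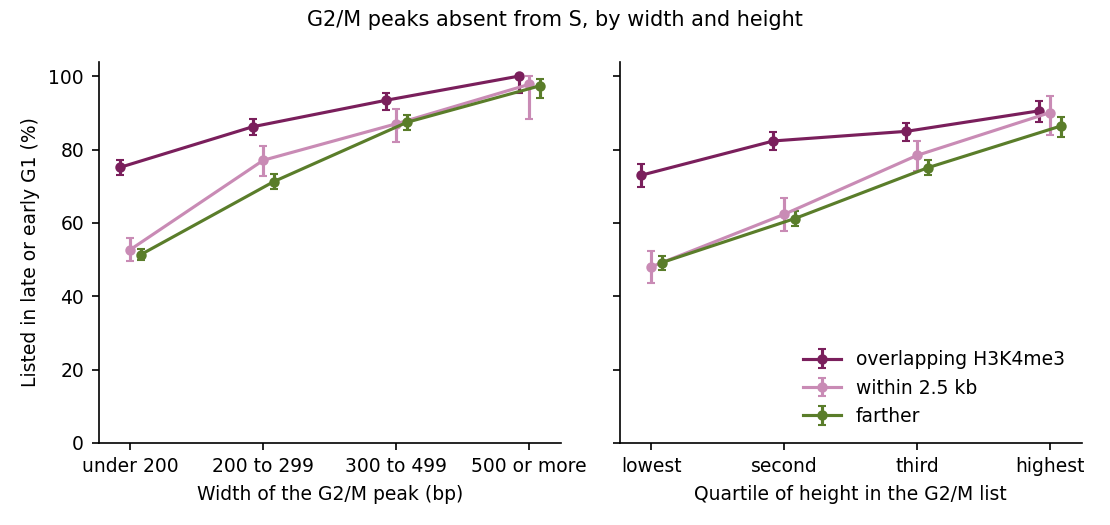
The share (%) of G2/M H3K27ac peaks absent from S that late or early G1 lists, by width band (left) and by quartile of height in the G2/M list (right), for the 3 distance classes, with exact 95% intervals. Peaks overlapping H3K4me3 start at 75.1% under 200 bp and 72.9% in the lowest quartile, above the other classes, and the lines draw together at the right of both panels.

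Many absent peaks lay close to an S peak that they did not touch. The nearest S peak was within 500 bp for 22.4% of them and within 1 kb for 35.1%, with a median distance of 9476 bp. Peaks within 1 kb of an S peak were the more often listed in G1: 89.4% against 78.7% where H3K4me3 overlapped, 73.8% against 58.8% within 2.5 kb of it and 71.6% against 56.5% farther away. Just inside and outside the overlap rule, 189 of 209 G2/M peaks (90.4%) that overlapped S by 25 bp or less and 121 of 142 (85.2%) with a gap of 25 bp or less were listed in G1. When a peak within 500 bp was also taken as a match, 9902 peaks were absent from S and 83.4% of them were listed in G1.

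Where the fractions shared a peak, the G2/M peak was usually the wider. There were 7705 overlapping pairs, joining 6761 G2/M peaks and 7379 S peaks, of which 5420 pairs were one to one. In those the G2/M peak was wider in 75.8%, equal in 5.996% and narrower in 18.2%, with median widths of 350 and 225 bp. A single G2/M peak spanned several S peaks in 810 cases (12.0% of the matched G2/M peaks), and 313 S peaks spanned several G2/M peaks. Across the one-to-one pairs Spearman's correlation was 0.49 for height (5095 pairs with heights) and 0.51 for width, as a description, since neighbouring peaks are not independent and each list is 1 library.

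In the other direction, a smaller share of S peaks was missing from G2/M. The G2/M list is the longer (19525 against 10268 peaks), which bears on this share. The 2889 S peaks that overlapped no G2/M peak were 28.1% of the S list, had a median width of 125 bp and covered 0.405 Mb. Late or early G1 listed 68.3% of them (66.6 to 70.0), against a background of 88.1% of all S peaks and 95.8% of the S peaks that overlapped G2/M. Late G1 listed 59.3% and early G1 39.8%, 823 (28.5%) being in late G1 alone and 260 in early G1 alone. Where they overlapped H3K4me3 the share was 87.9% of 487 peaks, with 72.9% in late G1 and 68.4% in early G1. Farther than 2.5 kb it was 63.7% of 2071 peaks, with 55.9% and 33.3%. For peaks missing from G2/M late G1 thus stood above early G1 in both classes, but the gap at H3K4me3 was small and rested on 487 peaks. For peaks missing from S early G1 was the higher at H3K4me3. This contrast between the sets was not tested. For this contrast widths were not matched, with medians of 125 bp (S peaks) and 175 bp (G2/M peaks). The share in late or early G1, pooled over distance classes, was also compared within 9 combinations of width band and each list's own height quartile. In all 9 the S peaks had the higher share. At the mix of the S peaks the shares were 67.9% (S peaks) and 61.3% (G2/M peaks), a difference of 6.58 points. The 2 sets are compared with the same G1 lists, so these values are set side by side only.

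Absent peaks at H3K4me3 lay mostly where H3K4me3 itself was listed in S. Of the 3251, 88.2% overlapped an S H3K4me3 peak, 83.3% a G2/M one, 90.7% an early G1 one and 75.8% a late G1 one. Both S and G2/M listed H3K4me3 at 2562 of them (78.8%), close to the 78.0% of G2/M H3K27ac peaks at H3K4me3 that S also listed. The heights of the H3K4me3 peaks were alike as well: the median percentile within the S H3K4me3 list was 85.7 at absent and 86.2 at overlapping H3K27ac peaks, and within the G2/M list 82.4 and 82.2. H3K4me3 was listed in all 4 fractions at 2255 of the absent peaks (69.4%), and there late or early G1 listed H3K27ac at 87.7% (86.2 to 89.0). With H3K4me3 in 1 fraction it was 65.1% of 381 peaks, in 2 fractions 71.3% of 258 and in 3 fractions 68.1% of 357. For G2/M peaks that S also listed, the shares with H3K4me3 in 1, 2, 3 and 4 fractions were 96.4%, 96.2%, 93.4% and 98.2%. Width and height were not matched in these shares.

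Counting H3K4me3 regions in place of peaks gave higher shares, but the units are unlike, since a G1 peak anywhere in a region counts. There were 2073 regions with H3K27ac listed in G2/M and not in S, and late or early G1 listed H3K27ac somewhere in 1877 of them (90.5%, 89.2 to 91.8). Early G1 listed it in 84.1% and late G1 in 71.3%, with 398 regions (19.2%) in early G1 alone and 133 (6.42%) in late G1 alone. In the 1493 regions with H3K27ac in both G2/M and S, early G1 listed it in 93.5% and late G1 in 96.9%. Some absent peaks lay beside a kept one: 869 of the 3251 (26.7%) were in a region where S listed another H3K27ac peak.

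H3K27me3 and H3K4me1 were listed at few absent peaks. H3K27me3, the mark of Polycomb repression, was listed in some fraction at 177 of them (1.39%), at 1.06% of those in late or early G1 and at 2.07% of those in neither. The G2/M peaks that S listed were at 1.86% (126 of 6761). H3K4me1, the mark of enhancers, was listed in some fraction at 7.68%, against 19.9% of the G2/M peaks that S listed. Farther than 2.5 kb from H3K4me3 these shares were 10.2% and 25.5%. The absent peaks were the narrower (median 175 against 375 bp), and a wide peak meets a 1 bp overlap more easily. The shares were not matched for width. The H3K4me1 lists held few peaks, and in S and G2/M they touched 3.29% and 3.89% of the absent peaks.

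The G1 counterparts of absent peaks were lower than those of overlapping peaks. Ranked within the late G1 list, the counterpart stood at a median percentile of 68.1 by height for absent peaks (6238 peaks) and 88.5 for G2/M peaks that S listed (5827). Within the early G1 list the medians were 69.3 (5830) and 84.4 (5350). Both sets of counterparts thus stood above the middle of their G1 list. Counterparts of absent peaks at H3K4me3 ranked higher in early G1 (81.0) than in late G1 (72.2), whereas those farther away stood at 61.5 and 65.1. The order was the same for G2/M peaks that S listed, with 92.0 and 90.4 at H3K4me3 and 81.4 and 87.1 farther away. Where a peak met several counterparts the tallest was taken, and widths were not matched.

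Followed forward from G1, a minority of the peaks missing from S were listed in G2/M. Of 25012 late G1 peaks that S did not list, 6094 (24.4%, 23.8 to 24.9) were listed in G2/M. Of the 7509 late G1 peaks that S did list, 6157 (82.0%) were. For early G1 the counts were 5449 of 23843 (22.9%) and 5496 of 6325 (86.9%). The G2/M list (19525 peaks) is shorter than the late G1 list (32521) and the early G1 list (30168), which bears on these shares. Late G1 peaks that also overlapped early G1 and were missing from S were listed in G2/M in 3939 of 9974 cases (39.5%, 38.5 to 40.5). This share rose with height in late G1, from 24.3% in the lowest quartile through 37.9% and 52.8% to 69.7% in the highest. By distance, early G1 peaks missing from S were listed in G2/M less often at H3K4me3 (18.3%) than within 2.5 kb (25.1%) or farther (27.1%). For late G1 the 3 classes were 25.9%, 25.9% and 23.4%. For late G1 peaks that also overlapped early G1 they were 33.9%, 43.8% and 43.7%. H3K4me3 thus went with a higher share when counted back from G2/M. Counted forward, it went with a lower share for early G1 peaks and for late G1 peaks that also overlapped early G1.

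**Figure D5:**
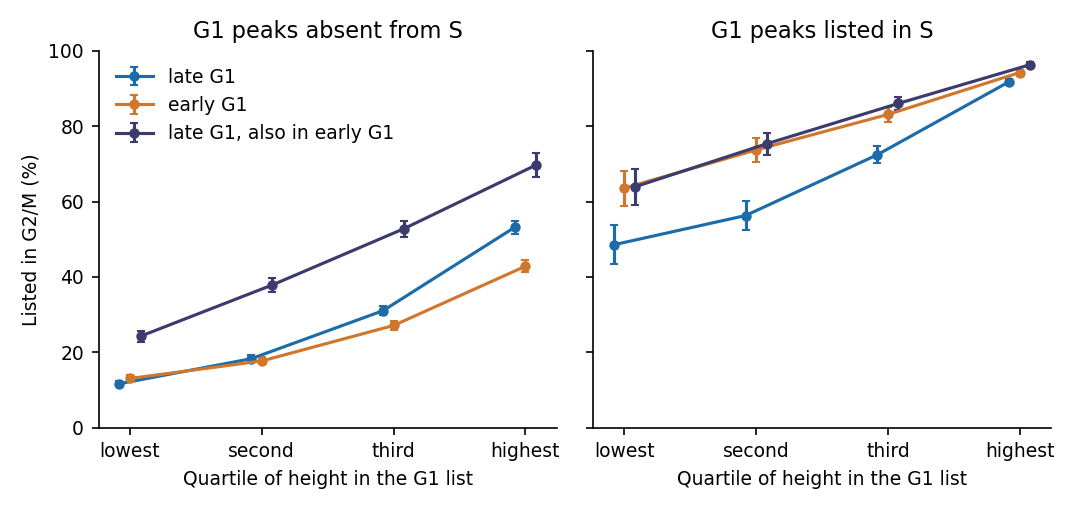
The share (%) of G1 H3K27ac peaks listed in G2/M, by quartile of height within the G1 list, for late G1 peaks, early G1 peaks and late G1 peaks that overlap early G1, with exact 95% intervals. Among peaks absent from S (left) the share rises with height to 53.2%, 42.8% and 69.7%, and among those listed in S (right) to 91.8%, 94.2% and 96.3%.

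The same count was made for the other steps and marks as values side by side, since consecutive steps share lists. Of H3K27ac peaks new in a fraction relative to the one before, the share listed in either of the remaining 2 fractions was 33.7% on entering early G1, 21.5% from early to late G1, 50.7% from late G1 to S and 67.5% from S to G2/M. For H3K27ac peaks that the fraction before also listed, the shares at these steps were 85.6%, 62.5%, 90.2% and 96.3%. From S to G2/M the share of new peaks was 42.9% of 6284 for H3K4me3, 76.3% of 15093 for H3K27me3 and 7.69% of 5126 for H3K4me1. For G2/M peaks of these marks that S also listed it was 97.0%, 97.3% and 28.9%, so the backgrounds differ as well. New peaks made up 21.9%, 57.0% and 83.3% of those G2/M lists. The lists differ in length, which bears on each of these shares.

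Over the chromosomes coded 1 to 23, the share of G2/M peaks absent from S ran from 61.0% to 72.2% (median 66.1%), and the share of absent peaks listed in late or early G1 from 61.4% to 72.7% (median 67.3%). Absent peaks overlapping H3K4me3 had the higher share on 22 of these 23.

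Single regions were taken by a rule on height, the 3 tallest absent peaks of each distance class listed in both G1 fractions and the 3 tallest listed in neither. Coordinates are as deposited, read as hg19, and heights are the authors' values, each on the scale of its own list. At H3K4me3 and in both G1 fractions, the peak on chr15:82338876-82339250 had a height of 77.8 in G2/M, with counterparts of 29.1 in early G1 and 36.4 in late G1, and H3K4me3 in all 4 fractions. The one on chr14:89882226-89882600 stood at 42.3, with 24.1 in early G1 and 28.0 in late G1. The tallest of this set, on chr2:232479251-232479775, stood at 127.9, with 40.6 and 26.3. All 3 also overlapped H3K27me3 in 1 fraction.

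Within 2.5 kb of H3K4me3 and in both G1 fractions were chr1:23888351-23888750 (height 36.0 in G2/M, 37.1 in early G1, 31.0 in late G1), chr7:42910626-42911100 (35.7, 23.4 and 34.2) and chr5:135901576-135902025 (34.5, 26.5 and 35.8). Farther away were chr19:4408451-4408825 (47.5, 38.8 and 28.2), chr3:25197276-25198325 (39.4, 68.4 and 34.1) and chr11:131851451-131851975 (37.5, 28.8 and 21.8). None of these 6 was listed for another mark in any fraction. The one on chromosome 3 was 1050 bp wide and lay 376 bp from an S peak, so S listed H3K27ac beside it.

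The tallest absent peaks without a G1 counterpart were taken in the same way. At H3K4me3 they were chr21:48119651-48120025 (height 52.7), chr1:180200501-180200825 (52.2) and chr7:159128426-159128775 (39.4). In all 3 H3K4me3 was listed in late G1, S and G2/M and not in early G1, and H3K27me3 was listed as well, at the one on chromosome 1 in every fraction. Farther away were chr5:179482251-179482575 (36.9), chr3:30706001-30706375 (35.9) and chr14:91841426-91841725 (34.3), all with H3K4me1 in G2/M. Those on chromosomes 5 and 14 also had H3K27me3 in S. Within 2.5 kb they were chr14:55143076-55143450 (29.4), chr17:44851576-44851800 (28.8), with H3K27me3 in all 4 fractions, and chr12:56550876-56551200 (27.7). The first and the last of these lay 151 and 126 bp from an S peak.

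Over the 18 regions, H3K27me3 was listed at 3 of 9 with counterparts in both G1 fractions and at 6 of 9 with none, and H3K4me1 at 0 and 4. Among absent peaks at H3K4me3, H3K27me3 was listed at 5 of the 100 tallest with counterparts in both G1 fractions and at 28 of the 100 tallest with none, and H3K4me3 of early G1 at 91 and 58. For H3K4me1 the 18 regions did not represent the larger sets: farther than 2.5 kb from H3K4me3 it was listed at 25 of the 100 tallest absent peaks with counterparts in both G1 fractions and at 9 of the 100 tallest with none. Over all absent peaks that far away, H3K4me1 was listed at 11.8% of those in late or early G1 and at 7.45% of those in neither, without matching for width. The tall peaks with H3K27me3 are not typical, since that mark touched 1.39% of all absent peaks and 3.51% of those at H3K4me3. Leaving out every G2/M peak that overlapped H3K27me3 moved no share beyond its interval.

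The 3 tallest S peaks missing from G2/M were chr11:121671201-121671475 (height 32.1 in S, 30.5 in early G1, 48.0 in late G1), chr1:31904676-31904950 (30.7, with 97.2 in late G1) and chr7:20276-20600 (27.4, with 37.6 in late G1). The first lay 76 bp from a G2/M peak. The other 2 had no early G1 counterpart, overlapped H3K4me3 and carried H3K27me3 and H3K4me1 in at least 1 fraction.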

How the data were processed

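Libraries were grouped by the labels, with 1 per mark and fraction. Per the submitters' processing notes the tools include Bowtie 0.12.7, and the builds listed are mm9 and hg19, with no step given for any of them. The peak caller was not given in the sources used here. Each deposited list gives chromosome code, start, end, width in bp, a signal column read from its values as peak height, and a negative score column. These signal and score values are the authors', and no list was rescaled. Heights were 0 on chromosomes coded 22 to 24 and treated as missing there, so quartiles cover chromosomes 1 to 21. The 4 inputs and 8 4C libraries were not analysed here. Unused per-sample columns numbered 0.

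Peaks matched by at least 1 bp. H3K4me3 peaks of 4 fractions were merged into 32799 regions. Python 3.11.15, numpy 2.4.6, pandas 2.3.3, scipy 1.17.1 and matplotlib 3.10.9 were used, and the overlap and interval code was tested on simulated data. No p-value was computed. The regions named were the 3 tallest per distance class in both G1 lists, the 3 in neither, and the 3 tallest S peaks missing from G2/M. Members, bands and alternatives were chosen with earlier results of these data known. Alternatives changed the overlap, the peaks kept, the distance limit and the H3K4me3 list. Those without chromosome 20, without peaks near S peaks and with quartiles of the score, and the late minus early G1 differences, were added after seeing the data.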

Additional observations from a re-analysis of the deposited data

How the results depend on the processing

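No paired analysis of samples was possible because each fraction had 1 library, and no test was made. Late and early G1 shares were counted on the same peaks, but the intervals of their differences treated them as separate sets. Over 9 results there were 83 alternatives. The count and the shares cannot be negative. Only the differences in points could change sign, and none did. Of the 83 alternatives, 40 moved by less than the interval or the 1.5-fold limit on a count. The other 43 moved by more, and the cause was not tested. The order of late and early G1 over all absent peaks was not among the 9 results, and it turned with equal lists. The results are the count of G2/M peaks absent from S, their shares in late or early G1, in late G1 and in early G1, and differences in points. With 50% of a peak covered the shares were 63.3%, 48.2% and 43.3%, and the highest minus lowest height quartile 37.1. With matches within 500 bp they were 83.4%, 69.9% and 65.9%, with differences of 12.7 (overlapping H3K4me3 minus farther), 21.8 (widest minus narrowest), 18.3 (height) and 10.9 (late minus early G1, farther). The stronger part of each list, split at its median height, gave 5672 peaks, 72.7%, 56.0% and 52.7%, with 11.7 (H3K4me3) and 25.8 (height). Equal lists of 9662 peaks gave 4588 peaks, 52.4%, 34.2% and 36.8%, with 24.1 (H3K4me3), 43.8 (width), 29.4 (height) and late minus early G1 of -19.9 at H3K4me3 and 4.57 farther. G2/M peaks of at least 250 bp gave 3403 peaks, 86.2%, 70.5% and 69.5%, with 8.85 (H3K4me3), 7.62 (height) and 6.83 (late minus early, farther). H3K4me3 of G2/M alone gave 21.5 (H3K4me3). Without peaks within 1 kb of an S peak, an alternative added after seeing the data, 8283 peaks were left, with 63.2%, 48.3% and 42.7%, and 22.2 (H3K4me3), 45.0 (width), 36.9 (height) and 13.4 (late minus early, farther). Quartiles of the score, also added, gave 31.1. The limit of 10 kb, and leaving out H3K27me3 overlaps, chromosomes without heights or chromosome 20, moved none of the results they apply to. Depth is unknown, so absence from a list is not absence of the mark.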
